A study of Mus musculus with 6 samples.

Results

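The baseline testis transcriptome on the standard diet was described from 3 of the 6 arrays of the series, those of mice 1, 2 and 5 in the titles. These were C57Bl/6 males, 4 months old, kept on standard chow (SD) after weaning. The labels name no transgene and no other treatment, and the 3 remaining arrays, of males on a high-fat diet, were not compared with them. The study drew the arrayed animals at random within each diet, after leaving out those with the strongest response to diet, so they are not a sample of all its animals. Total RNA of whole testis was amplified, labelled with biotin and read on Illumina bead arrays, with 1 array per mouse. Members were all genes that the platform annotation named by a single symbol on a probe. This gave 19057 genes from 34885 of the 45281 probes. Where a gene had several probes, the one with the highest mean intensity over the 3 arrays stood for it. No measured difference between animals entered this choice.

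The testis is made of seminiferous tubules, where spermatogonia divide, enter meiosis as spermatocytes and become haploid round spermatids. Round spermatids then elongate, exchange their histones for transition proteins and finally protamines, and build an acrosome and a tail. Sertoli cells nurse the germ cells inside the tubules, peritubular smooth muscle surrounds them, and Leydig cells between the tubules make testosterone. In RNA of the whole organ, fewer cells of a type and less RNA per cell cannot be told apart.

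A gene was called detected when its probe stood above the negative control beads (detection p under 0.05) on all 3 arrays. This held for 10049 genes, or 52.7% of all genes, and 6397 genes (33.6%) were detected on 0 arrays. In single mice, 11005, 10916 and 11817 genes were detected in SD mice 1, 2 and 5. The array of SD mouse 5 was the dimmest, with a median intensity of 126.2 against 172.5 and 152.4 in SD mice 1 and 2, and also detected the most genes. Of the 1631 genes detected in 1 mouse, 959 were those of SD mouse 5, 368 of SD mouse 1 and 304 of SD mouse 2. A call of not detected belongs to the probe and not to the transcript. Rpl6, Rpl14, Rpl17 and Rpl21, which encode ribosomal proteins needed in every cell, were detected on 0 arrays.

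Testis signal was spread over many genes rather than held by a few. After background correction, the 10 highest genes held 2.60%, 2.62% and 3.10% of the summed signal in SD mice 1, 2 and 5. The 100 highest held 16.06%, 16.02% and 17.22%, and the 1000 highest held 60.2%, 60.1% and 61.5%. The 1000 highest were 5.25% of all genes. A share of 50% of the signal lay in 660, 659 and 621 genes, so that SD mouse 5 had the most concentrated signal by each of these measures. Genes not detected on all 3 arrays together held 0.931%, 0.923% and 0.781%. The shares and ranks count probe signal and not molecules, and the affinity of each probe also sets its place. Whether the brightest beads were saturated was not tested.

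**Figure D1:**
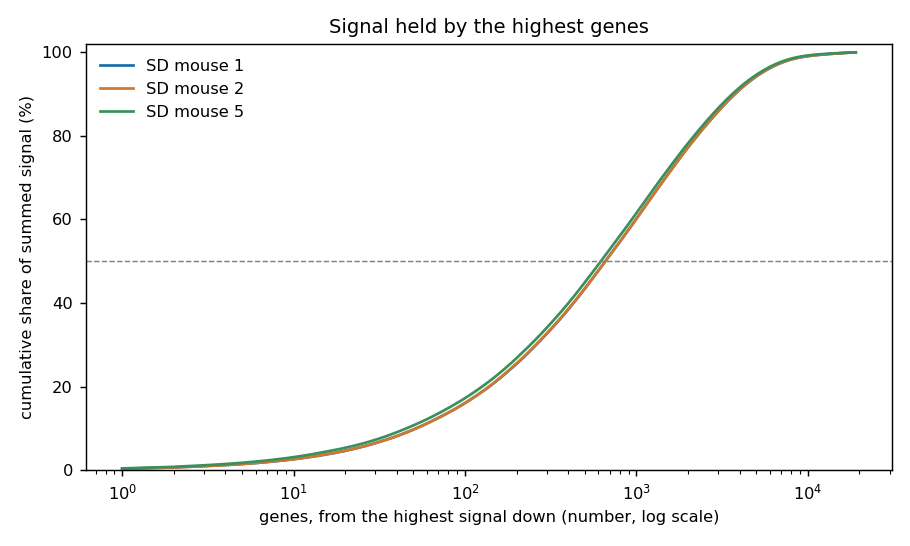
Cumulative share of the background-corrected signal (%, vertical axis) over the 19057 genes ordered from the highest down (number of genes, log axis), with 1 line for each SD mouse and a dashed line at 50%. The lines nearly coincide and cross 50% at 660, 659 and 621 genes in SD mice 1, 2 and 5.

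Levels below are on the log2 scale after background correction, an offset of 16 and quantile normalisation of the 3 arrays. On this scale all genes had a median of 5.97, and genes detected on all 3 arrays a median of 8.73. There were 9571 genes under a level of 6, of which 590 were detected on all 3 arrays. Only 140 genes had a level of 14 or more, and these held 20.5% of the signal. A further 903 genes between 12 and 14 held 41.1%.

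The gene of highest signal in each of the 3 mice was Prm1, which encodes a protamine that packs sperm DNA. Its bead intensity was 62126, 59112 and 55487 in SD mice 1, 2 and 5. Ubb-ps, a ubiquitin pseudogene symbol whose probe may also bind the transcript of the parent gene, ranked 2 in each mouse with 60699, 55908 and 50476. Ldhc, the lactate dehydrogenase subunit of germ cells, ranked 3 in each mouse with 57393, 55889 and 49746. Intensities of SD mouse 5 were the lowest of the 3 for all of these, as was the median of its array. Pgp, a phosphoglycolate phosphatase gene, had ranks of 6, 4 and 5, and Tcte3, a dynein light chain gene with near-identical copies in the mouse, had ranks of 4, 6 and 6.

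Of the 100 highest genes, 11 were in the list of elongating spermatids, 1 in that of round spermatids and 1 in that of spermatocytes. Gsg1, a germ cell gene, had ranks of 5, 10 and 4, and Tnp1, a transition protein that replaces histones before the protamines, had ranks of 11, 7 and 9. Hspa2, a heat shock protein needed to complete meiosis, had ranks of 7, 5 and 7. Fabp9, a fatty acid-binding protein of the sperm head matrix, had ranks of 10, 8 and 8, and Cabs1, a calcium-binding protein of elongating spermatids, had ranks of 19, 14 and 12. Among the 30 highest genes, Mlf1, Spata6, which is needed to connect the sperm head and tail, and Rsph1, a radial spoke protein of the axoneme, had further places, although these 3 genes were in none of the lists.

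The highest genes also included a Leydig cell gene and further genes outside the germ cell lists. RNA of the whole organ does not show which cells expressed them. Insl3, the insulin-like hormone of Leydig cells, had intensities of 43584, 40971 and 29824 and ranks of 8, 9 and 16. Mt1, which encodes a metallothionein that binds zinc and copper, had ranks of 12, 12 and 13. Ybx1, a cold shock domain protein that binds mRNA, had ranks of 14, 15 and 11. The remaining places among the first 30 included the ribosomal genes Rpl41 and Rps29, the elongation factor gene Eef1a1, the chaperonin gene Tcp1 and the mitochondrially encoded CYTB and ND1. Akap12, a scaffold of protein kinase A, moved most in rank among these 30, with 35, 45 and 15.

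**Figure D2:**
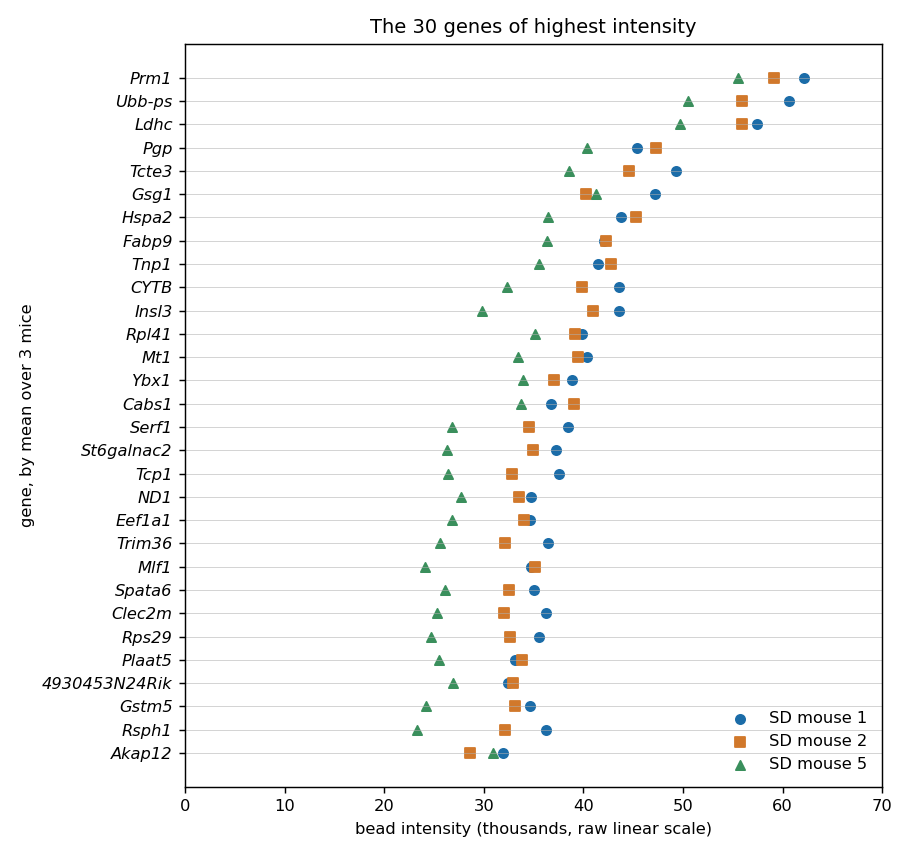
Raw bead intensity (divided by 1000, linear horizontal axis) of the 30 genes with the highest mean over 3 SD mice, 1 symbol per mouse, with genes ordered down the page by that mean. Prm1 is the highest in every mouse, and SD mouse 5 lies lowest for most genes, and the median of its array was also the lowest (126.2).

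The start regions of the genes of highest signal were read for the letters TGANNTCA, a loosened form of the cAMP response element TGACGTCA that is bound by CREM, an activator of spermatid genes. The loosened form was chosen after the regions of Prm1 and Tnp1 had been seen. Each region covered the 250 bases before a RefSeq start in GRCm38.p6, a gene could have several, and TGANNTCA reads alike on both strands and includes TGACGTCA. It stood in 15 of the 75 genes with a region among the 100 highest (20%), in 140 of 803 among the 1000 highest (17.4%) and in 1807 of all 15207 genes with a region (11.9%). Prm1 and Tnp1, from which the form was chosen, were among these 15 genes, so the choice itself raised the 20%. Genes among the 100 highest had 1.36 regions each and all genes 1.23, and the shares were not tested. The full element TGACGTCA was in 2.67% of the 100 highest and 2.33% of all genes, and TATAAA, on either strand, was in 9.33% and 12.8%. Among genes detected on all 3 arrays, TGANNTCA was in 12.1%, TGACGTCA in 3.17% and TATAAA in 8.44%. Against detected genes, the 100 highest were thus lower for TGACGTCA and higher for TATAAA. The 120 bases before the start are given for 3 genes among the 50 highest that encode a protamine, a transition protein and Akap4, a scaffold of the sperm tail, with the match in capitals.
Prm1 (chr16:10796824-10796943, minus strand): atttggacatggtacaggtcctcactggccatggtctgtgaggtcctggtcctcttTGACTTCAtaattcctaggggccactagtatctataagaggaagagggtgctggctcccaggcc
Tnp1 (chr1:73015900-73016019, minus strand): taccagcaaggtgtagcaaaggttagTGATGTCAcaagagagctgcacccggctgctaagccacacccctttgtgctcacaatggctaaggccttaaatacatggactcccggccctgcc
Akap4 (chrX:7067395-7067514, plus strand): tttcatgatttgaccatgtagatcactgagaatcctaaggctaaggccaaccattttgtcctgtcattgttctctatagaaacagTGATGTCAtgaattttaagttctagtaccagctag
The match began 64, 94 and 35 bases before the start in Prm1, Tnp1 and Akap4. A match is a description of letters and does not show that a factor was bound.

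Genes of elongating spermatids stood highest of all cell type lists. Of 24 listed genes, 20 were on the array under a single symbol, all 20 were detected on all 3 arrays, against 52.7% of all genes, and 17 were among the 1000 highest, against 5.25% of all genes. The median level of the list was 14.33, 14.51 and 14.36 in SD mice 1, 2 and 5, and its 20 genes together held 2.46%, 2.47% and 2.70% of the signal. Smcp, a cysteine-rich protein of the mitochondrial sheath, had levels of 14.81, 14.67 and 14.87. Hils1, a linker histone of spermatid nuclei, had 14.79, 14.71 and 14.61, and Odf1, a protein of the outer dense fibres of the tail, had 14.51, 14.76 and 14.79. Oaz3, an antizyme of germ cells, had 14.94, 14.66 and 14.64. Gpx4, a glutathione peroxidase that is also a structural protein of the sperm midpiece, had 14.14, 14.41 and 14.14. The second transition protein gene, Tnp2, was lower at 12.74, 12.78 and 12.34, and Prm3 had 11.56, 11.34 and 11.23. The lowest member, Shcbp1l, still had 10.10, 9.92 and 10.41, above the median of detected genes.

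Genes of round spermatids and the acrosome followed. Of 23 measured genes 22 were detected (95.7%, against 52.7% of all genes) and 14 were among the 1000 highest (against 5.25%). The median level was 12.95, 13.03 and 12.94 in SD mice 1, 2 and 5. The highest were Pgk2, the phosphoglycerate kinase of spermatids, at 14.53, 14.80 and 14.90, and Gapdhs, the sperm form of glyceraldehyde-3-phosphate dehydrogenase, at 14.17, 14.19 and 14.15. The serine kinase genes Tssk2 (13.77, 13.82 and 13.76) and Tssk6 (13.48, 13.64 and 13.70) varied little between mice. Acrosome genes included Acrv1 at 13.30, 13.30 and 13.47, the protease gene Acr at 12.86, 13.03 and 13.02, and Zpbp, named for its zona pellucida binding, at 13.44, 13.38 and 13.21. Crem, the transcription factor gene, lay between 11.98 and 12.12, and the sperm-egg fusion gene Izumo1 had 11.24, 11.12 and 11.32. Acrbp, which encodes a partner of proacrosin, spread more, with 10.96, 11.22 and 11.74. The probe of Tssk1 was detected on 0 arrays.

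Genes of spermatocytes and meiosis had a wide spread. Of 22 measured genes, 17 were detected (77.3%, against 52.7% of all genes) and 7 were among the 1000 highest (against 5.25%). The median level was 9.96, 9.99 and 10.17. Syce1, a central element protein of the synaptonemal complex that joins paired chromosomes, had 14.07, 14.14 and 13.98. Piwil1, the partner of pachytene piRNAs, had 13.47, 13.31 and 13.53, and the meiotic cohesin gene Stag3 had 12.98, 13.24 and 13.07. Spo11, which makes the DNA breaks of meiotic recombination, had 12.83, 12.57 and 12.87. The transverse filament gene Sycp1 had 10.65, 10.70 and 11.13. The single probes of Sycp3, Dmc1, Tex12 and Mybl1 were detected on 0 arrays, with mean levels of 4.61, 4.83, 4.58 and 5.21, although each of these genes is known to act in spermatocytes. Hormad1 was detected in SD mice 1 and 5, at 6.11 and 6.25, and had 4.70 in SD mouse 2.

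Spermatogonial genes were near the middle of the array. Of 18 genes 11 were detected (61.1%, near the 52.7% of all genes), and the median level was 5.70, 5.86 and 6.11. The list had 0 genes among the 1000 highest, against 5.25% of all genes, a share at which a list this short may hold 0. The highest was Id4, an inhibitor of differentiation found in stem cells, at 10.68, 10.81 and 10.82, followed by the receptor gene Kit of differentiating spermatogonia at 9.39, 9.39 and 9.63. Stra8, the retinoic acid-responsive gene of meiotic entry, had 8.31, 8.33 and 8.39, and Sohlh1, a regulator of differentiating spermatogonia, had 7.965, 8.002 and 8.028. Markers of stem and early cells were spread from Id4 down to background. Sall4, a transcription factor gene of undifferentiated spermatogonia, had 6.362, 6.694 and 7.004, and Etv5, a regulator of self-renewal, had 5.80, 6.33 and 6.26, and Bcl6b and Lin28a were also detected on all 3 arrays. The GDNF receptor gene Gfra1 was detected in 1 mouse, and Ret, its co-receptor, and Zbtb16, which maintains the stem cells, were detected on 0 arrays.

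Sertoli cell genes were mostly detected. Of 18 measured genes 16 were detected (88.9%, against 52.7% of all genes) and 4 were among the 1000 highest (against 5.25%). The median level was 8.61, 8.61 and 8.65. The tight junction gene Cldn11 had levels of 13.38, 13.40 and 13.19, Cst9, a cystatin, had 13.04, 13.19 and 13.23, and Amhr2, the receptor of anti-Müllerian hormone, had 12.49, 12.48 and 12.33. Sox9, the transcription factor of Sertoli identity, had 9.72, 9.76 and 9.92. The androgen-dependent homeobox gene Rhox5 had 10.36, 10.45 and 10.33. The receptor gene of follicle-stimulating hormone, Fshr, was lower at 6.75, 6.64 and 6.50. Among the detected genes of the list, Inha, a subunit of inhibin, had the widest range between mice, at 7.23, 7.97 and 8.31, with SD mouse 1 low.

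Leydig cell genes ran from the top of the array to background. Of 12 measured genes 9 were detected (75%, against 52.7% of all genes), and the median was 7.05, 6.84 and 6.90. After Insl3, the highest was Cyp17a1, the enzyme of androgen synthesis, at 12.96, 13.15 and 13.09. Ptgds, a prostaglandin synthase, had 11.18, 11.43 and 10.59. Cyp11a1, the side chain cleavage enzyme that opens steroid synthesis, had 8.90, 9.15 and 8.11, and both genes were lowest in SD mouse 5, as was Insl3. Hsd3b1 had 8.28, 8.34 and 8.51, and Star, which carries cholesterol into mitochondria, had 6.29, 6.10 and 6.53, with the highest value of each in SD mouse 5. The order of the mice thus differed between these genes, and a joint shift of the Leydig genes in that mouse was not tested.

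In other somatic lists, 1 of 10 peritubular muscle genes, 1 of 12 stromal genes and 0 of 12 endothelial genes were among the 1000 highest. For lists this short, these counts are near the share of 5.25% of all genes. Among 10 genes of peritubular smooth muscle, 5 were detected (50%, near the 52.7% of all genes). The highest were the actin genes Actg2 at 13.52, 13.41 and 13.48 and Acta2 at 11.37, 11.25 and 11.45. Since actin genes are alike in sequence, their probes may share transcripts. The smooth muscle myosin gene Myh11 had 6.51, 6.28 and 6.80, while Tagln and Cnn1, 2 further genes of contractile cells, were detected on 0 arrays. Of 12 stromal and matrix genes 10 were detected (83.3%, against 52.7% of all genes), with a median of 7.76 for the list. Igfbp7 had 12.25, 12.33 and 12.40 at 1 of its 5 probes, the only one detected on all 3 arrays. Sparc had 12.05, 11.92 and 11.71 and the proteoglycan gene Dcn 10.61, 10.54 and 10.50. Of 12 endothelial genes 6 were detected (50%, against 52.7% of all genes), and the median of the list was 5.78, near that of all genes. The highest was Egfl7 at 7.68, 8.12 and 7.82, and Vwf, Cldn5, Esam, Tek and the junction gene Cdh5 were also detected on all 3 arrays, whereas Pecam1 and Kdr were detected in 1 and 0 mice.

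Macrophage genes were mostly detected, at moderate levels. Of 16 measured genes 12 were detected (75%, against 52.7% of all genes), with a median of 7.40, 7.35 and 7.64. Among the 1000 highest there were 0 of them, against 5.25% of all genes, a share at which a list this short may hold 0. The lysozyme genes Lyz1 and Lyz2, close copies of each other, had 10.29, 10.52 and 9.93 and 9.73, 9.82 and 9.56. The mannose receptor gene Mrc1 had 8.97, 8.82 and 8.92, Adgre1, which encodes F4/80, had 7.59, 7.71 and 7.88, and the growth factor receptor gene Csf1r had 6.682, 7.002 and 6.927. By contrast, Tyrobp was detected on 0 arrays, C1qa in 1 mouse, and Cd14 and Cd163 in 2 mice each. Lymphocyte genes were mostly at background, with 2 of 9 detected (22.2%, against 52.7% of all genes). One was Cd3d, a subunit of the T cell receptor complex, at 9.63, 9.37 and 9.49, whereas its partners Cd3e and Cd3g were detected in 1 and 0 mice. The other was Cd4, at 6.38, 6.08 and 6.16.

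Of the 7 measured red blood cell genes 5 were detected (71.4%, against 52.7% of all genes), with a median of 8.46 for the list. Haemoglobin genes led it, with Hbb-bs at 10.77, 10.42 and 10.69 and Hba-a1 at 8.93, 8.66 and 8.89, and the 7 genes together held at most 0.0197% of the signal in a mouse. Of 8 adipocyte genes 2 were detected (25%, against 52.7% of all genes). Adipoq had 10.02, 9.82 and 10.11, while Fabp4, Plin1 and Lep, which also mark fat, were detected on 0 arrays. Of 11 epididymis genes 2 were detected (18.2%, against 52.7% of all genes). These were Eppin at 10.70, 10.73 and 10.62, a gene that the testis also expresses, and Cuzd1 at 6.62, 7.51 and 7.69. The lipocalin genes Lcn5 and Lcn9 and the ribonuclease gene Rnase9, which mark the epididymal duct, were detected on 0 arrays. Of 19 genes of liver, muscle, brain, pancreas and kidney, 1 was detected, the myelin gene Mbp at 6.04, 6.21 and 6.00, against 52.7% of all genes. Albumin, Alb, had 4.53, 4.46 and 4.57, among the lowest levels on the array.

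**Figure D3:**
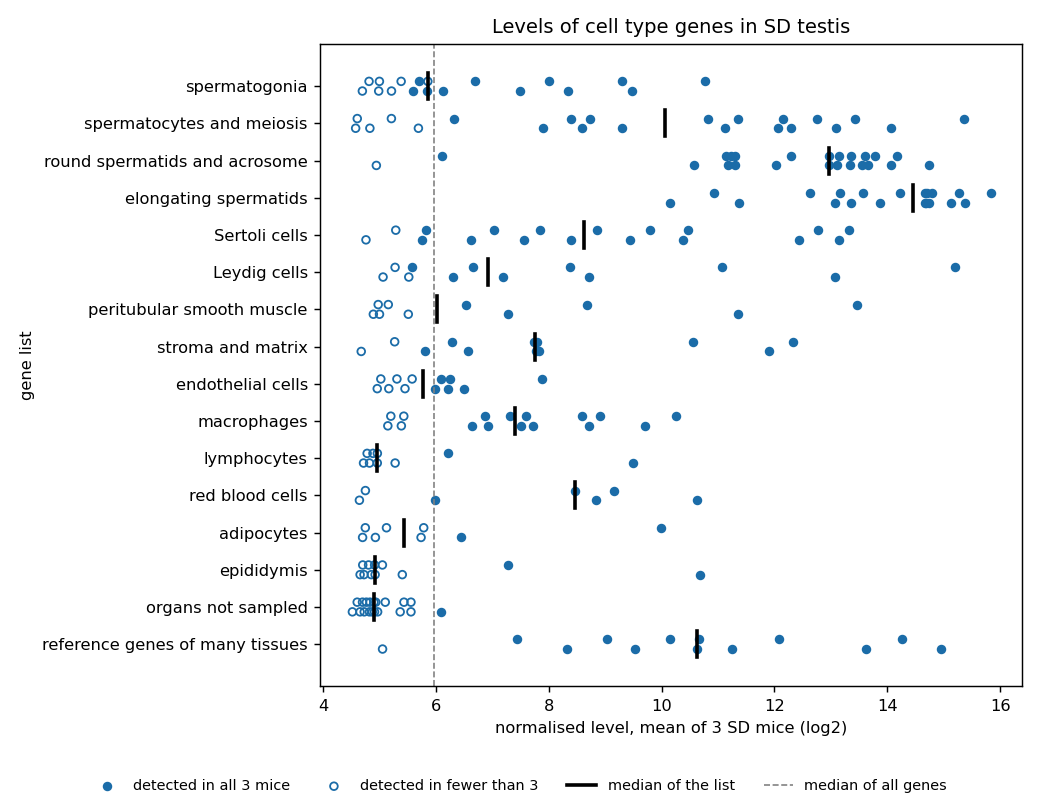
Normalised level (log2, mean of 3 SD mice, horizontal axis) of each measured gene of 16 lists, filled where the gene was detected in all 3 mice and open otherwise, with a black bar at the median of the list and a dashed line at the median of all genes (5.97). Elongating spermatid genes (median 14.45) and round spermatid genes (12.97) lie highest, and the genes of organs not sampled (4.90) lie at background.

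Germ cells use their own forms of many common enzymes, often copied from a parent gene on the X chromosome, which is silenced during meiosis. Of 19 such pairs, 15 had both genes on the array. In these, 12 germline genes and 14 widely expressed relatives were detected on all 3 arrays, against 52.7% of all genes. Among the 1000 highest there were 7 of the 15 germline genes and 3 of the 15 relatives, against 5.25% of all genes. A ratio between the genes of a pair is not given, because different probes measured them. In glycolysis, Ldhc had 15.72, 15.78 and 15.72 and Ldha 13.93, 13.94 and 13.47. Gapdhs had 14.17, 14.19 and 14.15 and Gapdh 10.20, 10.12 and 10.13. Pgk2 had 14.53, 14.80 and 14.90 and the X-linked Pgk1 9.19, 8.93 and 8.98.

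Respiratory and chaperone pairs were measured in the same way. Cox6b2 had 12.69, 12.46 and 12.09 and Cox6b1 10.17, 10.22 and 10.14, and Cox7b2 had 11.84, 11.71 and 11.92 and Cox7b 7.57, 7.39 and 7.50. Hspa2 had 15.34, 15.38 and 15.34 and Hspa8, the constitutive chaperone of all cells, 11.998, 12.117 and 12.184. In RNA and translation, the poly(A)-binding protein gene Pabpc2 had 13.28, 13.22 and 13.44, while the widely expressed Pabpc1 had 14.46, 14.39 and 14.59. Rpl39l had 13.18, 13.26 and 13.33 and its X-linked parent Rpl39 11.93, 11.79 and 11.62. The germline cytochrome c gene Cyct had 6.76, 6.76 and 7.01 and Cycs 10.47, 10.43 and 10.45. Pdha2, the pyruvate dehydrogenase subunit of spermatogenic cells, had 5.79, 6.41 and 6.13 and Pdha1 7.40, 7.44 and 7.09. Probes of Slc25a31, Cstf2t and Utp14b, 3 further germline genes, were detected on 0 arrays.

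**Figure D4:**
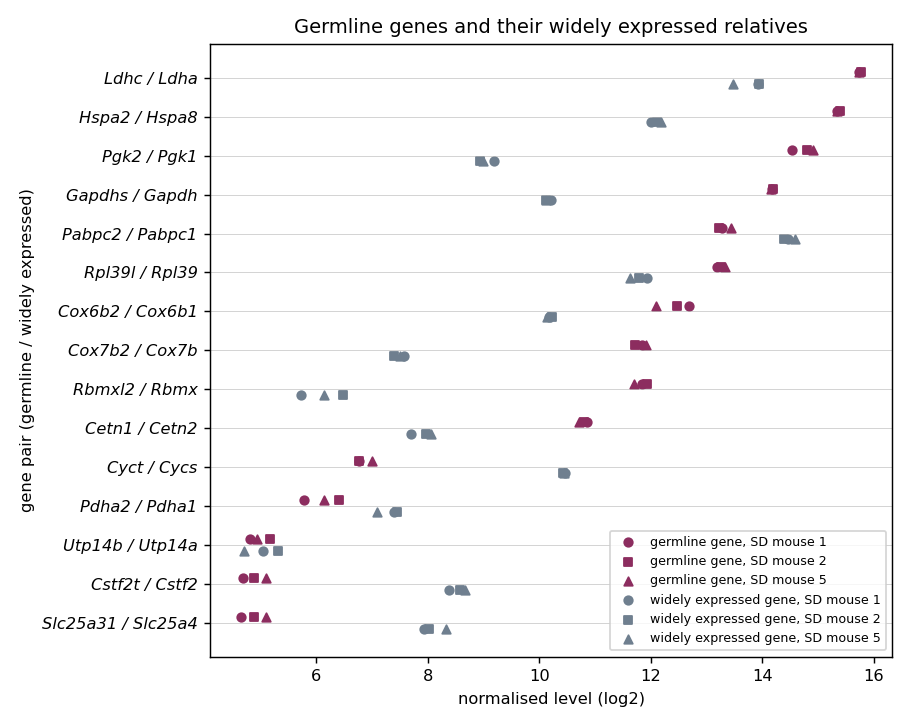
Normalised level (log2, horizontal axis) in each SD mouse for the 15 pairs with both genes on the array, with the germline gene in purple above its widely expressed relative in grey and 1 symbol shape per mouse. Ldhc lies highest at 15.72 to 15.78, and the probes of Slc25a31, Cstf2t and Utp14b lie at background.

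Genes of protein synthesis and respiration were detected at high levels. Of 58 genes of cytosolic ribosomal proteins 51 were detected (87.9%, against 52.7% of all genes) and 28 were among the 1000 highest (against 5.25%). Together the 58 genes held 2.44%, 2.45% and 2.39% of the signal. Of 78 nuclear genes of oxidative phosphorylation 71 were detected (91.0%) and 26 were among the 1000 highest, against the same shares of all genes. These 78 genes held 1.89%, 1.98% and 1.98% of the signal. Here the highest was Cox8c, the testis form of a cytochrome c oxidase subunit, at 14.50, 14.76 and 14.93. Of the 8 genes under mitochondrially encoded symbols, 5 (CYTB, ND1, ATP6, ND4 and COX2) were among the 100 highest, and ND5 had the lowest levels at 5.87, 5.97 and 5.92. The mean levels of these 8 probes lay between 5.92 and 15.23. Of 13 measured genes used as references in many tissues 12 were detected (92.3%, against 52.7% of all genes), with a median of 10.62. The actin gene Actb had 13.59, 13.72 and 13.57, and the TATA-binding protein gene Tbp had 12.10, 11.95 and 12.17.

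The order of genes was nearly the same in the 3 mice. Over the 10049 detected genes, Spearman's correlation was 0.990 between SD mice 1 and 2, 0.986 between 1 and 5 and 0.989 between 2 and 5, and over all 19057 genes it was 0.946, 0.942 and 0.943. These are correlations across genes, which are not independent replicates, and all arrays share the affinities of their probes. Of the 100 highest genes, 87 were shared by all 3 mice, and of the 1000 highest, 915 were. The median detected gene had an SD between mice of 0.15 and a range, the highest minus the lowest mouse, of 0.29.

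A range of at least 1, which is 2-fold, was found at 151 of the 10049 detected genes, or 1.5%. This count depended on the processing, with 8 genes without background correction, 9 in the deposited log2 values, 91 at a detection p under 0.01 and 556 with no filter on detection. The 151 genes were dim, with 66.2% under a level of 7, against 22.1% of all detected genes. Among 3161 genes with a level of 10 or more, 4 had such a range. SD mouse 5 was the mouse farthest from the middle value at 70 of the 151 genes (46.4%, against 37.4% of all detected genes), SD mouse 1 at 57 (37.7%, against 33.5%) and SD mouse 2 at 24 (15.9%, against 29.2%). Without SD mouse 1, 2 or 5 the count was 51, 96 or 39, and a pair of mice also gives a smaller range than 3. Among detected genes of the lists, this range was found at 2 of 6 endothelial genes, Cldn5 and Tek. It was also found at Inha (1 of 16 Sertoli genes), Cyp11a1 (1 of 9 Leydig), C1qc (1 of 12 macrophage) and Cuzd1 (1 of 2 epididymis). All other lists had 0, among them the 4 germ cell lists with 11, 17, 22 and 20 detected genes. The 51 detected ribosomal genes also had 0, and the mitochondrially encoded genes had 1, ND6. Lists this short may hold 0 at the share of 1.5% over all detected genes.

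The widest range was at Mup2, a major urinary protein gene with many near-identical copies, at 5.91, 5.61 and 7.59 in SD mice 1, 2 and 5. Phospho1, a phosphatase of bone mineralisation, followed with 6.47, 7.39 and 8.44, Atn1 with 5.85, 6.40 and 7.77, and the kallikrein gene Klk1b22 with 7.21, 6.59 and 5.37. In each of these SD mouse 5 was at one end, the highest in 3 genes and the lowest in Klk1b22. The other genes among the 10 widest were Cic, Bcl2l1, Tnrc18, Kcnh2, Ier3 and Mapre3. The apoptosis inhibitor gene Bcl2l1 had 5.93, 6.22 and 7.43 at its named probe, whereas its other probe detected in all mice had 5.67, 6.55 and 5.65, with SD mouse 2 highest. The 2 other probes of Mup2 were detected on 0 arrays. At Tnrc18, with 6.85, 7.32 and 8.34, another detected probe had 5.72, 5.74 and 6.15, and SD mouse 5 was highest at both. Further probes thus repeated the order of mice in some genes and not in others. Brighter genes with a wide range included 4930590J08Rik, at 10.42, 11.09 and 11.86, and the hexokinase gene Hk1, at 10.88, 11.66 and 12.21, with SD mouse 5 highest in both.

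**Figure D5:**
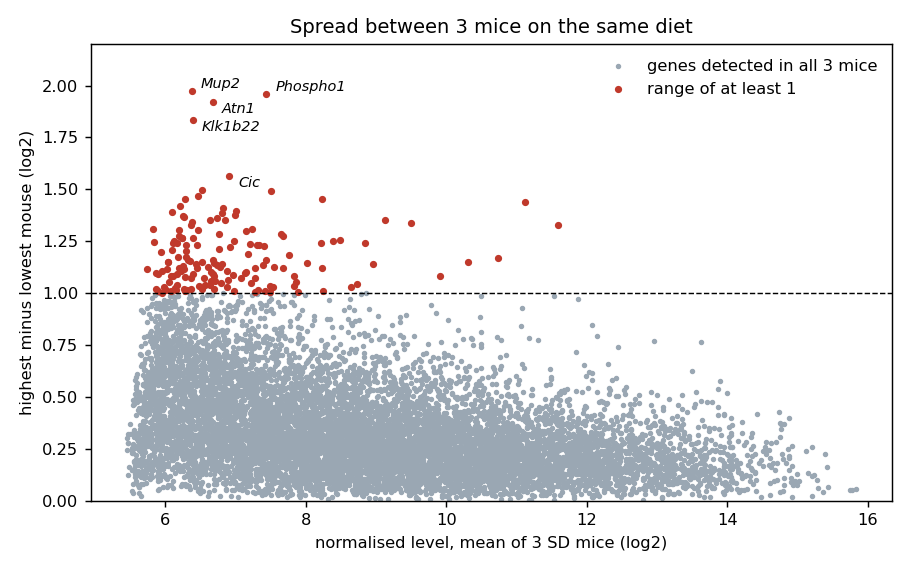
Highest minus lowest normalised level among 3 SD mice (log2, vertical axis) against the mean level (log2, horizontal axis) for the 10049 genes detected in all 3 mice, with the 151 genes of range 1 or more in red and the widest 5 named. Wide ranges lie mainly at levels under 8, and the range narrows as the level rises.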

How the data were processed

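The analysis used the deposited table of linear bead intensity values, exported by the authors from GenomeStudio without background subtraction or scaling between arrays. The detection score deposited by the authors beside each intensity, although headed as a p-value, rises with intensity, and subtracting it from 1 gave the p of detection. The authors also deposited log2 values of the same arrays, which equal log2 intensity less an upper quartile per array and a further constant per probe (largest SD over arrays of the remainder 0.000152). That constant removes differences between genes and its origin is unknown, so these values served only for spread between mice. Their medians were -0.01725, -0.05636 and 0.001854 in SD mice 1, 2 and 5. The methods name background subtraction, normalisation and RMA for the array values. For the arrays, a genome build and the version of GenomeStudio are not given in the sources used here.

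With limma 3.58.1 in R 4.3.3, background was corrected from the detection p by nec without offset for shares of signal, and by neqc with an offset of 16 and quantile normalisation of the 3 SD arrays for levels. Ranks follow the intensity within an array. Symbols came from the platform annotation, and 34807 of 34885 single-symbol probes matched RefSeq (GRCm38.p6) by Entrez number with 0 symbols changed. The calculation of shares was run on simulated data, where the corrected shares lay below the true ones and closer to them than the raw shares did. The simulated signal was exponential and the background normal, close to the form that the correction assumes. This simulation therefore does not show how well the correction did on the real arrays. A group of 3 mice on a single diet offers no contrast, so no statistical test was run, and the number of arrays limits the precision. The titles number the mice, and the arrays were taken as separate animals. Genes were named from the 30 highest, from up to 10 of the highest members of each list and from the gene pairs. Others came from the 10 widest ranges and from undetected defining markers. Not all members of these groups were named, and further genes were chosen after their values were seen. Members, lists and alternatives were chosen with earlier results of these data known. The 16 cell type lists held genes that several cell types express.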

Additional observations from a re-analysis of the deposited data

Results flagged for a closer look

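Probes without a single gene symbol were left out of the description, yet 2608 of these 10396 probes (25.1%) were detected on all 3 SD arrays, against 41.8% of the probes with 1 symbol. Among the 100 probes of highest mean intensity, 24 had no single symbol. The list of the highest genes is therefore a list of the named ones.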

How the results depend on the processing

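No paired analysis was possible because a single diet was described, with no contrast to block, and no mouse number of the titles recurs in the other diet. Shares of the 10, 100 and 1000 highest genes were 2.42%, 14.4% and 53.5% from raw intensity, 2.10%, 12.9% and 50.7% with all probes as separate features, and 3.56%, 19.6% and 66.0% with the median over a gene's probes, against means of 2.77%, 16.4% and 60.6%. Leaving out a mouse gave 2.61% to 2.86%, 16.04% to 16.64% and 60.2% to 60.8%. A share of 50% of the signal lay in 972 features when all probes were counted, 853.7 genes from raw intensity, 513 with the median over probes and 640 to 660 without a mouse, against a mean of 646.7. The mean Spearman correlation of 0.943 was 0.923 with the median over probes, 0.988 over detected genes and 0.942 to 0.946 without a mouse. From raw intensity the shares of ribosomal, nuclear and mitochondrially encoded respiratory genes were 2.16%, 1.75% and 0.833%. Leaving out a mouse gave 2.42% to 2.45%, 1.93% to 1.98% and 0.938% to 0.958%. The 151 genes of wide range were 8 without background correction, 9 in the deposited log2 values, 91 at detection p under 0.01, 556 with no filter and 39 to 96 without a mouse. Background left in the values narrows differences of dim probes by construction, and a stricter filter removes dim probes. Detected genes numbered 9141 to 12660 over all alternatives and 10220 to 10466 without a mouse. Of 16 lists, 9 had a median percentile above that of all genes, 6 to 11 under the alternatives and 9 to 10 without a mouse. By log2 level the list of peritubular smooth muscle also lay above, at 6.02 against 5.97. Of 108 list medians under an alternative, as percentiles, 77 moved by less than the SD between mice.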

Other observations

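Gene families followed by their symbols differed in how many members were detected. Of 1078 olfactory receptor genes (Olfr) 11 were detected on all 3 arrays (1.02%), of 168 vomeronasal receptor genes 6 (3.57%) and of 91 keratin and keratin-associated genes 7 (7.69%), against 52.7% of all genes. By contrast 24 of 28 Spata genes (85.7%) and 31 of 34 Tex genes (91.2%), families named for their expression in testis, were detected. Of each family 10 were among the 1000 highest, against 5.25% of all genes. Of 118 coiled-coil domain genes (Ccdc) 92 were detected (78.0%) with 15 among the 1000 highest. Of 40 proteasome subunit genes (Psm) 35 were detected (87.5%) with 9 among the 1000 highest, against the same shares of all genes. Zinc finger genes (Zfp) were close to the array as a whole, with 193 of 331 detected (58.3%) but 2 among the 1000 highest. Of 87 cytochrome P450 genes 18 were detected (20.7%), and of 34 chemokine genes (Ccl and Cxcl) 7 (20.6%), against 52.7% of all genes. Each of these 2 families had 1 gene among the 1000 highest, against 5.25% of all genes. The symbol families were chosen after the arrays had been examined.

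Among 5791 detected genes with several probes, the next brightest probe lay 1.64 lower on the log2 scale at the median gene, and at 2461 of them (42.5%) it lay lower by 2 or more. A further probe was detected on all 3 arrays in 3286 of these genes (56.7%).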
